A study of Mus musculus with 46 samples.

Results

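A group of 235 genes was followed whose messages were lost quickly after transcription was blocked, both in mouse EPSCs and in primitive endoderm cells made from them. EPSCs are mouse stem cells that can contribute to embryonic and, in some settings, extraembryonic tissue. Primitive endoderm (PrE) forms beside the epiblast in the early embryo and gives rise to yolk sac endoderm. The members were chosen from a time course of actinomycin D, a drug that stops RNA synthesis. With counts scaled to CPM (counts as parts of the library total, on a common scale), a member had a mean of at least 10 CPM at 0 h and a mean at 2 h of at most 0.35 of that at 0 h, in both cell states. Of 21812 genes listed, 8233 had 10 CPM or more at 0 h in both states, and 825 passed the ratio limit in EPSCs, 336 in PrE-induced cells and 329 in both. Of these 329, 94 were left out by symbol, 72 of them zinc finger genes named Zfp, and the rest Klf, Dusp, Spry, Myc, Smad and other families. The values at 0 h and 2 h chose the members, so they are given as a description with no test.

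A message that turns over quickly lets a cell change the amount of a protein soon after transcription of its gene starts or stops. Such messages are usually shortened at the poly(A) tail by deadenylases, then decapped and degraded from the 5′ end or degraded from the 3′ end by the exosome. AU-rich elements in the 3′ untranslated region (3′ UTR), built on the pentamer ATTTA, are bound by proteins that recruit deadenylases, and N6-methyladenosine (m6A), an internal mark on mRNA, can recruit the same machinery through reader proteins. Early-response transcription factors, feedback inhibitors of signalling and cell cycle regulators are textbook examples of short-lived messages.

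The series had 46 libraries of total RNA in 19 groups and 7 count tables. The time course of actinomycin D took EPSCs (EPS) and EPSCs in PrE-induction medium (PrEdiff) at 0, 1, 2 and 3 h (2 libraries each), and untreated EPSC had 2 libraries in a table of their own. PrE-induced cells were labelled Virma WT or cKO, Mettl3 WT or cKO, and siNC or siIgf2bp3 (2 libraries each), and sorted cells of such cultures were CD140+ (PrE-E) or CD140- (EPI-E, 2 each). VE and EPI parts were separated with pronase E from embryoids of day 5 (6 libraries each), which are structures grown from EPSCs and GBL-1 cells. The labels gave no clone, deleted exons, Cre driver or siRNA time for these groups, and did not say that replicates came from separate cultures, so p-values measure the spread between these libraries, which may be technical. Total counts ran from 6854433 to 22280769. Replicates of the actinomycin D table differed by little more than counting error, with a chi-square of 1.21 to 1.32 times its degrees of freedom, so p-values from that table may measure counting error alone.

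Labels were checked on the targeted genes and on cell type markers. Virma, the scaffold of the m6A writer complex, was at 107 and 110 CPM in WT and 67.7 and 54.6 CPM in the cKO libraries (log2 change -0.82 ± 0.12, SE). Mettl3, the catalytic subunit, was at 37.4 and 35.2 CPM in WT and 34.9 and 37.1 CPM in the libraries labelled cKO (adjusted p = 0.978 by edgeR), and counts over the whole gene do not test a deletion of part of it. Igf2bp3, an m6A reader, was at 98.4 and 113 CPM in siNC and 117 and 111 CPM in the libraries labelled siIgf2bp3 (adjusted p = 0.577 by edgeR), so a knockdown was not seen in them. Summed over 10 PrE markers, the sorted PrE-E libraries held 40214 to 40434 CPM and EPI-E 191 to 206 CPM, and embryoid VE held 6277 to 7145 CPM against 367 to 518 CPM in EPI. In bulk samples, a change in the share of cells of a type and a change of RNA per cell cannot be told apart.

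The members' annotated transcripts were long, had few exons and held AU-rich motifs more often than those of all genes at 10 CPM or more at 0 h in both states. Those genes share the lower limit but not the level, with 0 h medians of 51.1 CPM in EPS and 52.0 CPM in PrEdiff against 35.4 and 35.9 CPM for the members. One transcript per gene, that with the longest coding sequence, was taken from GENCODE M21, whose gene models are on GRCm38, and all 235 members matched by symbol or synonym. The median transcript was 4534 bases, against 3052 bases for the genes at 10 CPM or more, and the median 3′ UTR was 1593 bases against 1005 bases. The median number of exons was 7, against 10, and 62 coding members (26.5%) had 3 exons or fewer, against 8.55% of those genes. Median GC content was 46.3% against 49.9%. Exons of another gene overlapped 77 members (32.8%, against 31.0%), and 7 lay within another gene, among them Zbed6 in Zc3h11a, Csrnp1 in Cx3cr1 and Haspin in Itgae, so their reads may be shared. These are descriptions of a list, with no test.

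Motifs were counted on the sense strand of the 3′ UTR, and each longer motif contains the shorter ones. ATTTA was in 87.9% of the members' 3′ UTRs and in 68.2% of those of genes at 10 CPM or more. TATTTAT was in 118 of 231 (51.1%), against 28.5%, and TTATTTATT in 30 (13.0%), against 7.0%. Longer 3′ UTRs hold more motifs by length alone, so the shares were also compared within bands of length. TATTTAT was in 27.8% of the members' 3′ UTRs of 200 to under 1000 bases (15 of 54), against 15.3%. In the band of 1000 to under 2000 bases it was in 51.9% (40 of 77), against 32.5%, and in the band of 2000 to under 4000 bases in 69.8% (44 of 63), against 50.1%. The share was above that of the other genes in each of the 3 bands. GGACT, a form of the motif methylated as m6A, was counted over the whole transcript and had a median of 0.999 per kilobase in members and 1.02 per kilobase in genes at 10 CPM or more.

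**Figure D1:**
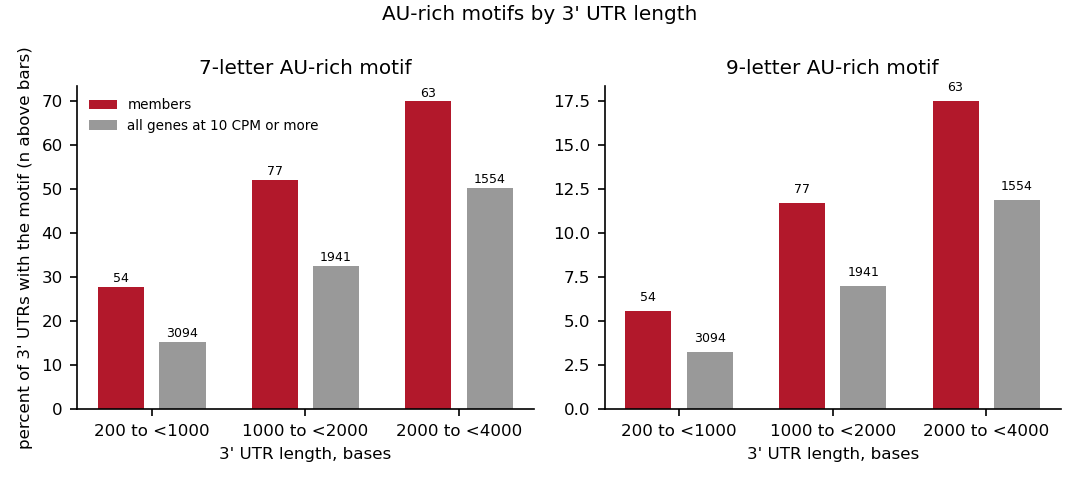
Percent of 3′ UTRs that hold the AU-rich motif TATTTAT (left) or TTATTTATT (right), by 3′ UTR length in bases, for the members and for all genes at 10 CPM or more at 0 h in both states, with the number of 3′ UTRs above each bar. The members' bar is the higher in every band, for instance 51.9% against 32.5% for TATTTAT at 1000 to under 2000 bases.

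The AU-rich sites below show the 9-letter motif in 6 members named below. They are read 5′ to 3′ on the transcript from the GENCODE M21 sequences, with the motif in capitals and 10 bases on each side.
Nfkbia: ggaccacgttTTATTTATTgtgcttttga
Plk2: aataaactttTTATTTATTacagccccaa
Csrnp1: cactctgaatTTATTTATTtttttatgtt
Zbtb10: taaagtaggaTTATTTATTttgtttcttc
Tiparp: ttccacacaaTTATTTATTttgccctagt
Zic5: tgctacaggtTTATTTATTatgaaacaaa
The site starts at base 296 of the 512-base 3′ UTR of Nfkbia (chromosome 12) and at base 520 of the 620-base 3′ UTR of Plk2 (chromosome 13), both short. It starts at base 155 of 1075 in Csrnp1 (chromosome 9), 3859 of 4300 in Zbtb10 (chromosome 3), 1325 of 1953 in Tiparp (chromosome 3) and 2365 of 2538 in Zic5 (chromosome 14). A match is a string of letters and not a measured binding site.

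By role, assigned by name, transcription factors and cofactors were the largest class with 47 members (20%). Signalling genes and chromatin regulators had 34 each, RNA processing, decay and translation 23, membrane, trafficking, metabolism and chaperones 22, cell cycle, DNA repair and cell death 19, and ubiquitin ligases, adaptors and deubiquitinases 17. The other 39 had no assigned role. The median ratio of 2 h to 0 h by class ran from 0.177 (transcription factors) to 0.208 (ubiquitin genes) in EPS and from 0.262 (transcription factors) to 0.306 (signalling) in PrEdiff, values that the rule caps at 0.35.

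Over the course, the median member was at 0.401 of its 0 h level after 1 h, 0.199 after 2 h and 0.286 after 3 h in EPS. In PrEdiff the medians were 0.533, 0.295 and 0.261. The genes at 10 CPM or more had medians of 0.849, 0.766 and 0.928 in EPS and 0.915, 0.819 and 0.805 in PrEdiff. CPM are relative, so each ratio is a loss against the average transcript. By group means, every member was lower at 1 h than at 0 h and lower again at 2 h in both states. The ratio of 2 h to 0 h was lower in EPS than in PrEdiff for 217 members (92.3%), against 63.7% of genes at 10 CPM or more. The rule used these ratios, and its limit passed 336 genes in PrEdiff and 825 in EPS. The share among members was thus shaped by the rule and is not a finding about the states. From 2 h to 3 h, 158 members were higher in EPS, 70 of them at least 2 times, and 9 were above their 0 h level. Tet2, one of the 9, was at 54.4 and 57 CPM at 0 h, 11.4 and 10.2 at 2 h and 60.6 and 61.6 at 3 h. In PrEdiff 93 were higher at 3 h than at 2 h, 3 of them at least 2 times, and 0 were above their 0 h level. The low level at 2 h was set by the rule, and at 3 h in EPS not all members were still below their 0 h level.

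**Figure D2:**
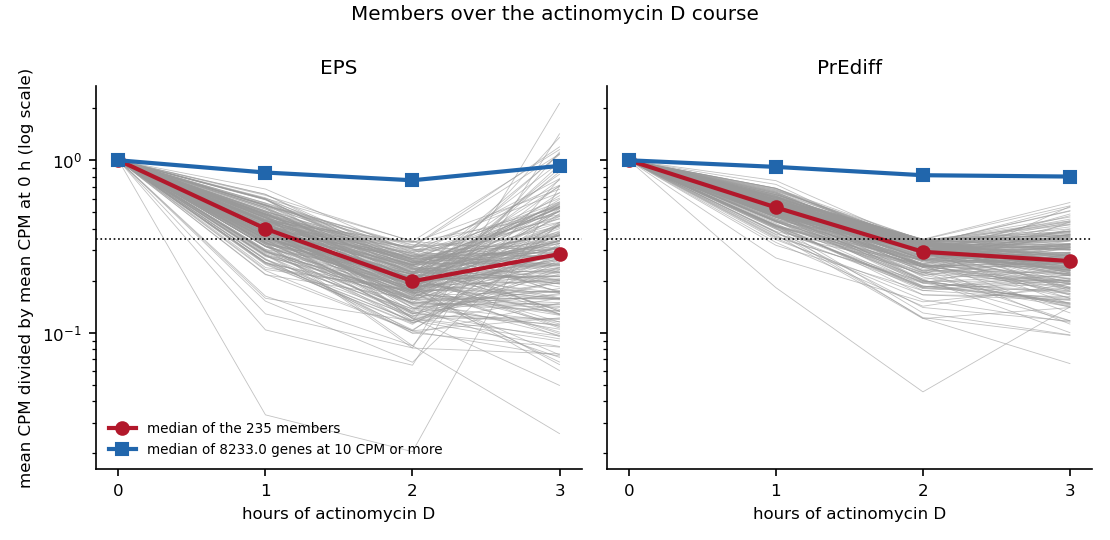
Mean CPM at each time divided by that at 0 h (log scale) against hours of actinomycin D in EPS and PrEdiff, for each of the 235 members (grey lines), their median (red) and the median of 8233 genes at 10 CPM or more (blue), with the limit of 0.35 dotted. The members' median went from 0.199 at 2 h to 0.286 at 3 h in EPS and from 0.295 to 0.261 in PrEdiff.

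The lowest ratio belonged to Zbed6, a zinc finger gene of transposon origin that encodes a transcriptional repressor. Zbed6 was at 24.1 and 23 CPM at 0 h in EPS, 0.847 and 0.725 at 1 h, 0.374 and 0.588 at 2 h, and 14.9 and 18.4 at 3 h. In PrEdiff its levels were 42 and 39.8, 6.68 and 8.26, 2.04 and 1.68, and 6.03 and 5.52 CPM at those times. It lies within Zc3h11a in the annotation, and without the counting rule its reads cannot be told apart from those of its host. Ccn1, a secreted matrix protein and early-response gene, was lower at each later time in EPS, from 15.4 and 17.6 CPM to 5.93 and 5.13, 1.33 and 1.44, and 0.366 and 0.494. In PrEdiff it went from 23.8 and 22.5 CPM at 0 h to 3.37 and 2.30 at 2 h. Nfkbia, the inhibitor that holds NF-kappa-B in the cytoplasm, went from 30.8 and 31.3 CPM to 4.16 and 3.37 at 2 h in EPS and from 20.4 and 21.7 to 2.48 and 3.42 in PrEdiff. Both replicates of each of these genes lay well below 0 h at 2 h.

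Other members with the lowest ratios had varied roles. Trib1, a pseudokinase that brings targets to a ubiquitin ligase, had ratios of 0.0998 in EPS and 0.121 in PrEdiff. Hes1, the Notch-responsive repressor known for oscillating expression, had 0.144 and 0.121, and Socs3, the feedback inhibitor of JAK-STAT signalling, 0.121 and 0.155. Csrnp1, a nuclear early-response protein, had 0.102 and 0.166, and Med26, a Mediator subunit, 0.0815 and 0.201. Stil, needed for centriole duplication, had 0.0992 and 0.183. Usp26, a deubiquitinase, had 0.0649 and 0.218, and Kbtbd2, a substrate adaptor for cullin 3, 0.117 and 0.166. Of these 8 genes, all but Hes1 had the lower ratio in EPS.

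Ranked by the geometric mean of the 0 h levels in both states, Jade1, Txnip and Slc38a2 were the most abundant members. Txnip, an arrestin-like inhibitor of thioredoxin and glucose uptake, was at 154 and 158 CPM at 0 h in EPS and 15.6 and 16.5 at 2 h. In PrEdiff Txnip went from 540 and 542 CPM to 96.2 and 93.7. Jade1, a scaffold of histone acetyltransferase complexes, went from 374 and 385 CPM to 42.4 and 44.5 in EPS and from 250 and 248 to 46.6 and 44.9 in PrEdiff. Slc38a2, an amino acid transporter, went from 298 and 299 CPM to 46.9 and 46 in EPS. At 0 h the members' median was 35.4 CPM in EPS and 35.9 CPM in PrEdiff. Of all members, 13 were at least 2 times higher in PrEdiff and 19 at least 2 times higher in EPS at 0 h. Just inside the ratio limit, Ppp1r12a, Gtf3c4 and Mllt11 had PrEdiff ratios of 0.3485, 0.3488 and 0.3491, and just outside, Ercc6, Caskin2 and Rictor had 0.3502, 0.3505 and 0.3510.

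Summed over all members, messages made up 12250 and 12296 CPM at 0 h, 4842 and 4853 at 1 h, 2388 and 2400 at 2 h and 3958 and 3936 at 3 h in EPS. In PrEdiff the sums were 11106 and 11113, 5687 and 5665, 3024 and 2981, and 3005 and 2968 CPM. The sum was higher in EPS before the drug and lower in EPS at 2 h, and these values chose the members. With TMM factors (edgeR's scaling to the bulk of genes) in place of library totals, only 79 genes met the rule, all of them members.

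The 1 h and 3 h libraries did not enter the rule, and the change between them was tested. By group means every member was already lower at 2 h than at 1 h. A fall across 2 h thus partly restates the choice of members, and loss after 2 h was not tested. By library totals, the members' median ratio of 3 h to 2 h was 0.933 in PrEdiff and 1.41 in EPS. For genes at 10 CPM or more it was 0.959 and 1.07. "Rose" and "fell" mean an adjusted p below 0.05 in edgeR's quasi-likelihood test, with Benjamini-Hochberg adjustment over all genes tested. From here CPM carry TMM factors, and changes are log2 values ± SE. In PrEdiff, 201 of 235 members fell from 1 h to 3 h and 5 rose, where 24.1% of all genes tested fell and 30.9% rose, and the members' median change was -0.75. In EPS, 139 fell and 77 rose, where 34.0% of all genes fell and 34.2% rose, with a median of -0.42. Shares of members falling were above those of all genes tested in both states, and shares rising were near them in EPS and far below them in PrEdiff. Of 8183 coding genes at 10 CPM or more, 3610 rose and 3319 fell in EPS, and 3515 rose and 2265 fell in PrEdiff. Against those genes the members' share rising was lower in EPS too. In all, 135 members fell in both states, 48 rose in EPS and fell in PrEdiff, and 5 rose in both. Joint calls were not counted over all genes, so whether these numbers are particular to the members was not tested. With scaling to library totals the PrEdiff rises dropped to 1, and with scaling to ribosomal protein genes to 0.

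**Figure D3:**
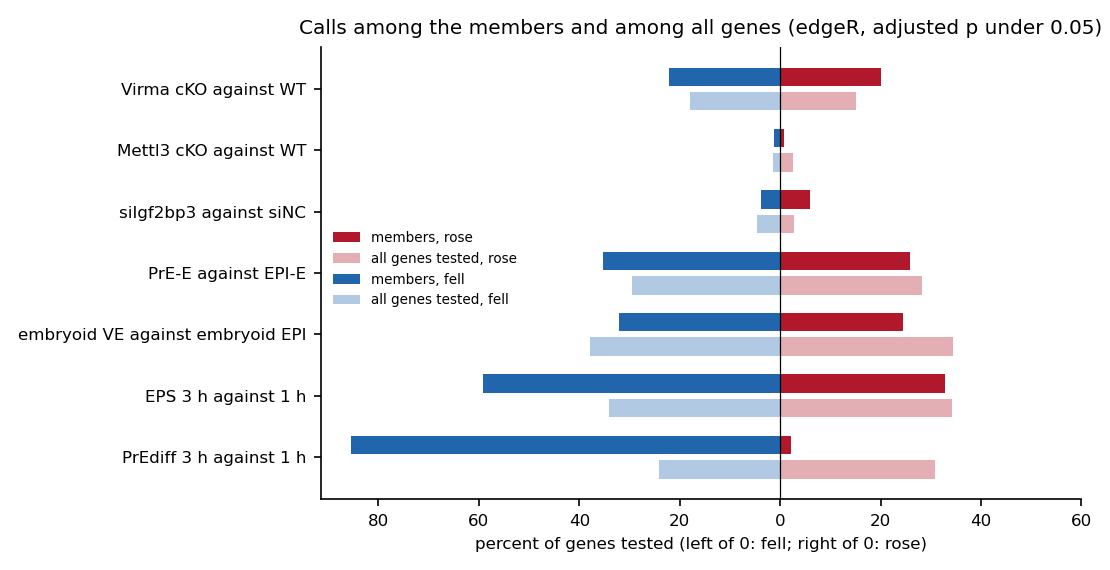
Percent of the members (dark bars) and of all genes tested (pale bars) that fell (left of 0) or rose (right of 0) in each comparison by edgeR at an adjusted p under 0.05. The dark bar is far longer than the pale one for falls from 1 h to 3 h, at 201 of 235 members in PrEdiff, and differs from it less in the comparisons between conditions.

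Genes are singled out below as leading a comparison among called members with a mean of at least 10 CPM and groups that did not overlap. In PrEdiff, Cited2, a coactivator-binding inhibitor of hypoxia signalling, was at 22.1 and 22 CPM at 1 h and 5.03 and 4.92 CPM at 3 h (-2.14 ± 0.11, adjusted p = 1.71e-46 by edgeR). Bag5, a chaperone regulator, was at 17.7 and 16.1 CPM and then 4.29 and 3.95 (-2.02 ± 0.12). Ppm1d, the phosphatase that turns off p53 signalling, was at 16.6 and 18 CPM and then 4.69 and 4.02 (-1.99 ± 0.12). The 1 h and 3 h libraries did not overlap for any of these. Btg1, an antiproliferative protein that stimulates deadenylation (-1.91), Sgk1, a serum-induced kinase (-1.87), Dyrk3, a kinase that dissolves condensates (-1.81), Pnrc1 (-1.71) and Phf13 (-1.60) were the other leading falls. The 5 rises were small: Tet2, an enzyme that oxidises 5-methylcytosine, went from 35 and 36.7 to 43.6 and 40.4 CPM (0.23 ± 0.06), Kmt2e changed by 0.21, Ppp1r12a by 0.19 and Pank3 by 0.14. Pdpr, named after its values were seen because its mean is below 10 CPM, rose by 0.58 ± 0.12. The signs of Tet2, Kmt2e, Ppp1r12a and Pank3 turned with scaling to library totals or ribosomal protein genes. With ribosomal protein scaling each of them was called as a fall.

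Nuclear and cell cycle regulators were among the leading falls in EPS. Dyrk3 was at 35.1 and 33.2 CPM at 1 h and 5.12 and 4.68 at 3 h (-2.80 ± 0.09). Gbx2, a homeobox factor of naive pluripotency, was at 31.2 and 34.5 CPM and then 5.66 and 5.21 (-2.59 ± 0.09). Pnrc1 (-2.48), Aunip (-2.33), Nsrp1 (-2.26), Srfbp1 (-2.11) and Wee1, the kinase that delays mitosis (-2.08), also fell.

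Rises in EPS were large. Pdpr, a regulatory subunit of pyruvate dehydrogenase phosphatase, was at 1.69 and 1.59 CPM at 1 h and 29.8 and 27.9 CPM at 3 h (4.13 ± 0.12). Kmt2c, a histone H3 lysine 4 methyltransferase, was at 4.90 and 3.81 CPM and then 32.5 and 32.5 (2.89 ± 0.10). Tet2 was at 17.1 and 18.9 CPM and then 65.7 and 66.9 (1.88 ± 0.06). In each of them both 3 h libraries stood above both 1 h libraries. Ankrd52 (2.27), Ankhd1 (2.20), Dennd4c (1.93), Ash1l, another histone methyltransferase (1.91), and Phc3, a Polycomb protein (1.81), rose as well. Zbed6 rose by 4.48 ± 0.17, with the same limit on its reads.

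By role, 21 of 34 chromatin regulators rose in EPS and 10 fell (median 0.44). Cell cycle, DNA repair and death genes had 1 rise and 16 falls of 19 (median -1.04), RNA processing genes 4 and 17 of 23, signalling genes 7 and 25 of 34, transcription factors 17 and 27 of 47, and ubiquitin genes 3 and 12 of 17. Wider lists in like roles, most of whose genes are not members, had 45 rises and 24 falls of 80 for chromatin, 36 and 17 of 60 for RNA processing, 10 and 37 of 51 for the cell cycle, 14 and 57 of 85 for signalling, 12 and 72 of 108 for transcription factors and 30 and 40 of 89 for ubiquitin genes. The wider RNA processing list thus had more rises than falls, unlike the members of that role. In PrEdiff most members of each class fell: transcription factors 0 rises and 42 falls, signalling 1 and 31, chromatin 2 and 25, RNA processing 0 and 22, cell cycle 0 and 17, and ubiquitin genes 0 and 15. The difference between the states in the 3 h against 1 h change was itself tested, as an interaction. It was more negative in PrEdiff for 119 members and more positive for 43, where 27.9% and 27.5% of all genes were so called (55.4% in either direction). Of the chromatin regulators, 28 of 34 were more negative in PrEdiff and 1 more positive. The wider chromatin list, with 16 members among its 80 genes, leaned the same way, with 51 more negative and 12 more positive. Scaling to ribosomal protein genes turned the split of all members to 202 and 6, with the median of all genes shifted by -0.79.

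The late rise in EPS went with transcript length. Members that rose had a median transcript of 6620 bases and 12 exons, and those that fell 3433 bases and 5 exons. Over 234 coding members, Spearman's rho between the EPS change and length was 0.58, and over 8183 genes at 10 CPM or more it was 0.48, with 4071 bases for genes that rose and 2136 for those that fell. In PrEdiff rho was 0.45 in members and -0.26 in those 8183 genes. These are correlations across genes of the same libraries, which are not independent replicates. The EPS 3 h libraries also differed from the 1 h libraries in markers: 10 PrE markers summed to 363 to 373 CPM at 3 h and 227 to 232 CPM at 1 h, and 10 trophoblast markers to 37.9 to 40.1 and 92.5 to 93.2 CPM. The part of these shifts in the members' rises was not tested. Without the EPS 3 h libraries in the fit, the PrEdiff counts were 5 rises and 200 falls.

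**Figure D4:**
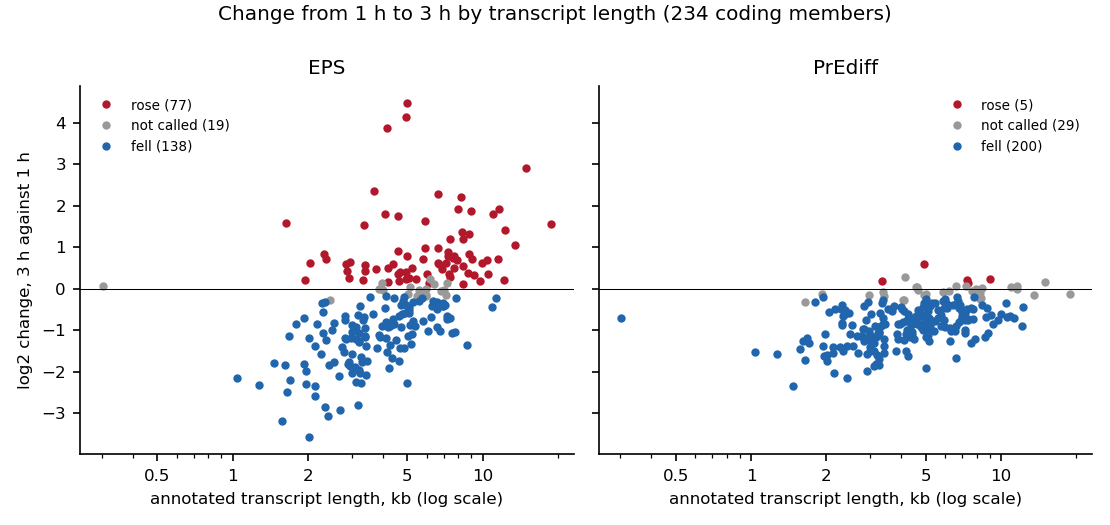
Log2 change from 1 h to 3 h of actinomycin D against annotated transcript length in kilobases (log axis) for the 234 coding members, in EPS and PrEdiff, coloured by call. Rising members in EPS lie toward longer transcripts, with a median of 6620 bases against 3433 bases for falling ones.

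State differences at 1 h, which share libraries with the changes above, were called for 98 members higher in PrEdiff and 86 lower. Of all genes tested, 41.4% were higher and 40.5% lower, so the members were close to that background. Of 8183 coding genes at 10 CPM or more at 0 h in both states, 2916 were higher and 4170 lower. Those genes thus leaned lower in PrEdiff, and the members did not. Both states had 1 h of the drug by then. The median member was at 0.401 of its 0 h level in EPS and 0.533 in PrEdiff, so these differences mix starting level with loss. Bhlhe40, a clock-linked repressor, was at 112 and 116 CPM in PrEdiff and 10.6 and 10.4 in EPS (3.45 ± 0.06). Rassf8, a junction-associated Ras-binding protein (2.57), Txnip (2.12), Kmt2c (2.02) and Ephb3, an ephrin receptor (1.89), were also higher in PrEdiff. Gbx2 was at 3.65 and 4.33 CPM in PrEdiff and 31.2 and 34.5 in EPS (-3.03 ± 0.10). Sgk1 (-2.26), Six4 (-1.47), Zic5 (-1.38), the deacetylase gene Sirt1 (-1.32) and Enc1 (-1.20) were lower. Library totals gave 133 higher and 60 lower, and ribosomal protein scaling 159 and 40, with the median of all genes at 0.24 and 0.47 in place of 0.02.

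Genes of the decay machinery were listed to see which are members. Of 21 genes of deadenylation, Btg1 and Tob1 were members, of 18 for decapping Dcp1a, and of 14 for nonsense-mediated decay Smg8. Of 18 AU-rich and other sequence-specific factors, 1 was a member, and Zfp36l2 met the rule but was left out by name. None of 18 exosome genes and 20 m6A writers, erasers and readers was a member, after Cbll1, a writer subunit, was left out by name. Median ratios of 2 h to 0 h at 10 CPM or more were 0.948 in EPS and 0.943 in PrEdiff for the exosome, and 0.537 and 0.562 for the sequence-specific factors. The m6A genes had 0.555 and 0.654. At 1 h of the drug, where levels again mix starting level with loss, 14 of 18 exosome genes were lower in PrEdiff than in EPS and 4 higher. Lower and higher were 13 and 3 of 18 decapping genes, 10 and 2 of 14 nonsense-mediated decay genes and 11 and 5 of 20 m6A genes. Sequence-specific factors split 6 lower and 9 higher of 18, and deadenylation genes 6 and 10 of 21. Exosc5, an exosome subunit, differed most of the exosome genes (-1.83 ± 0.05).

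Between the sorted fractions, 61 members rose and 83 fell in PrE-E against EPI-E, where 28.3% of all genes rose and 29.5% fell (57.7% called in either direction). Rises were near the background and falls somewhat above it, and the median change was -0.14. Rassf8 was at 132 and 139 CPM in PrE-E and 9.41 and 10.7 in EPI-E (3.76 ± 0.15, adjusted p = 2.57e-10 by edgeR). Elf1, an ETS factor, was at 65.6 and 64.5 CPM and 5.90 and 4.94 (3.58 ± 0.20), and Cited2 at 137 and 141 and 10.5 and 13.6 (3.53 ± 0.15). Both PrE-E libraries stood above both EPI-E libraries for each of them. Ephb3 (3.5), Zbtb10 (2.86), Ccn1 (2.80), Nt5dc3 (2.73) and the T-box factor gene Tbx3 (2.58) were the other leading rises.

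The falls included homeobox and zinc finger factors and a chromatin remodeller. Gbx2 was at 0.309 and 1.42 CPM in PrE-E and 48.3 and 41.5 in EPI-E (-5.63 ± 0.40), and Six4 at 1.54 and 2.45 and 85.9 and 74.1 (-5.30 ± 0.24). Chd9, a chromodomain remodeller, was at 11 and 9.92 CPM and 341 and 342 (-5.03 ± 0.11). None of these groups overlapped. Txnip (-3.37), Enc1 (-3.24), Auts2 (-3.21), Dyrk3 (-2.88) and Zic5 (-2.38) fell too. Ier5l had 0 counts in PrE-E and was at least 39.7-fold lower against a floor of 3 counts per library, and Usp26 at least 16.2-fold lower. Fzd10, a Wnt receptor, had 1 count in PrE-E and 75 in EPI-E, a ratio of 80.1 with an exact 95% interval of 13.9 to 3205. These bounds cover counting error only.

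By role, signalling genes had 15 rises and 8 falls of 34, RNA processing genes 2 and 12 of 23, ubiquitin genes 1 and 6 of 17, chromatin regulators 11 and 16 of 34, transcription factors 14 and 16 of 47 and cell cycle genes 4 and 7 of 19. Wider lists of genes in like roles, of which 7 to 18 a list were members, gave these rises and falls: signalling 24 rises and 19 falls of 73 tested, RNA processing 11 and 26 of 59, chromatin 19 and 40 of 80, transcription factors 27 and 39 of 102, ubiquitin 22 and 22 of 88, and cell cycle 12 and 20 of 51. Exosome genes had 1 rise and 10 falls of 18 here, Dis3, its catalytic subunit, among the falls (-1.0 ± 0.08). Scaling to ribosomal protein genes gave 82 rises and 66 falls among the members, with the median of all genes at 0.23 in place of -0.03.

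In embryoids, 56 members rose and 73 fell in VE against EPI of 228 tested, where 34.5% of all genes rose and 38.0% fell, so both shares lay below the background. Cited2 ran from 81.6 to 108 CPM in VE (median 99.3, n = 6) and from 8.41 to 11.7 in EPI (median 10.8, n = 6; 3.22 ± 0.12, adjusted p = 1.78e-15 by edgeR). Elf1 ran from 24 to 37.3 CPM in VE (median 29.8) and from 1.60 to 4.42 in EPI (median 2.42; 3.5 ± 0.25). Nrip1, a nuclear receptor corepressor, ran from 14.4 to 20.3 CPM (median 18.1) and from 1.29 to 3.59 (median 3.02; 2.69 ± 0.28). The 6 VE libraries stood above all 6 EPI libraries for each of these. Plekhg3 (2.50), Arid5b (2.38), Smcr8 (2.32), Magi3 (2.25) and Phf13 (1.95) rose as well.

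Among members with a mean of at least 10 CPM, Chd9 had the most negative change, from 103 to 137 CPM in EPI (median 127) against 0.6 to 4.66 in VE (median 2.36; -5.52 ± 0.27). Irf1, an interferon regulatory factor, ran from 43.2 to 50.3 CPM in EPI (median 46.5) and from 0.12 to 3.93 in VE (median 1.33; -4.83 ± 0.37). Dyrk3 ran from 78.5 to 97.5 CPM in EPI (median 90.5) and from 3.25 to 17.4 in VE (median 8.15; -3.32 ± 0.25). The groups did not overlap for these genes. Txnip (-3.20), Arrdc3, its arrestin-domain relative (-2.69), Zic5 (-2.54), G2e3 (-2.17) and Tut1 (-2.04) also fell, and Usp26 had 1 count in VE and 236 in EPI, a ratio of 186 (exact 95% interval 33.1 to 7383). By role, signalling genes had 13 rises and 9 falls of 29 tested, transcription factors 14 and 12 of 47, cell cycle genes 2 and 10 of 19 and RNA processing genes 2 and 9 of 23. The wider lists had 23 rises and 25 falls of 71 tested for signalling and 35 and 33 of 93 for transcription factors. For the cell cycle they had 13 and 24 of 48, and for RNA processing 14 and 21 of 58. Exosome genes had 1 rise and 14 falls of 18. Up to 10 of 12 feeder fibroblast markers had no counts in a library. Scaling to ribosomal protein genes gave 87 rises and 57 falls, with the median of all genes at 0.27 in place of -0.05.

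The sorted cells and the embryoid parts share no libraries. Of the members called in them, 37 rose in both, which is 60.7% of those rising in PrE-E and 66.1% of those rising in VE. Over all genes tested in both, the shares were 78.2% and 68.7%. A further 49 members fell in both, 59.0% of the falls in PrE-E and 67.1% of those in VE, where the shares over all genes were 76.3% and 58.7%. Those that fell in both included Chd9, Txnip, Dyrk3, Zic5 and Usp26. Bhlhe40 and Tiparp, an ADP-ribosyltransferase induced by the aryl hydrocarbon receptor, rose in PrE-E and fell in VE. Bhlhe40 was at 15.7 and 14.9 CPM in PrE-E and 5.96 and 10.3 in EPI-E (0.91 ± 0.35), but at 11.5 to 20.9 CPM (median 13.9) in VE and 42.5 to 62.4 (median 54.3) in EPI (-1.81 ± 0.16). Chd2, a chromodomain remodeller (-0.63 and 0.48), Ino80d (-0.84 and 0.77), Mepce (-0.93 and 0.87) and Spen, a Notch corepressor (-0.22 and 0.93), fell in PrE-E and rose in VE.

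In the libraries labelled Virma cKO, 47 members rose and 52 fell, where 15.1% of all genes rose and 18.0% fell. Both shares, 20% and 22.1%, were a little above those of all genes tested, and the median change was 0.03. Of 8180 coding genes at 10 CPM or more at 0 h in both states, 1190 rose and 2074 fell. The members' share falling was below that of those genes, and their share rising above it. Rpp38, a protein subunit of ribonucleases P and MRP, was at 22.9 and 20 CPM in WT and 65.8 and 60.7 in cKO (1.57 ± 0.16, adjusted p = 2.16e-09 by edgeR). Nfkbia was at 20.3 and 12.5 CPM in WT and 42.4 and 35.6 in cKO (1.25 ± 0.21). Aunip, a centrosome and DNA repair protein, was at 44.7 and 39 CPM and 94.7 and 88.5 (1.13 ± 0.13). In each, both cKO libraries stood above both WT libraries. Zbtb24 (1.30), Dyrk3 (1.27), Smg8, a regulator of the nonsense-mediated decay kinase (1.0), Auts2 (0.98) and the deubiquitinase gene Usp42 (0.96) rose as well.

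Ephb3 led the falls, from 42.4 and 51.1 CPM in WT to 10.5 and 7.75 in cKO (-2.36 ± 0.21, adjusted p = 6.65e-11 by edgeR). Sgk1 was at 66 and 57.8 CPM and 17.9 and 15.5 (-1.89 ± 0.17). These groups did not overlap. Zbtb10 (-1.66), Epha4, an ephrin receptor (-1.60), Tet2 (-1.41), Tbx3 (-1.27) and Zic5 (-1.25) fell too. Signalling genes had 4 rises and 11 falls of 34, ubiquitin genes 6 and 2 of 17, transcription factors 11 and 12 of 47, chromatin regulators 7 and 7 of 34, and RNA processing genes 6 and 6 of 23. The wider lists had 25 rises and 13 falls of 83 for signalling, the opposite balance to the members, 20 and 13 of 89 for ubiquitin genes, 29 and 17 of 106 for transcription factors, 19 and 19 of 80 for chromatin, 7 and 19 of 60 for RNA processing and 17 and 8 of 51 for the cell cycle. Of 18 decapping genes, 0 rose and 5 fell.

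The cell makeup differed between these groups. Summed over 10 PrE markers, WT held 7200 to 7325 CPM and cKO 1340 to 1351 CPM, over 10 visceral endoderm markers 985 to 1007 and 43.4 to 50.5, and over 12 feeder fibroblast markers 978 to 988 and 2687 to 2729 CPM. None of these markers is a member, and their part in the members' changes was not tested. Of the 52 members that fell, 22 (42.3%) rose in PrE-E against EPI-E and 19 (36.5%) fell there, where the shares over all genes falling were 42.2% and 34.9%. Of the 47 that rose, 22 (46.8%) fell in PrE-E and 4 (8.51%) rose there, where the shares over all genes rising were 36.5% and 20.9%. Scaling to library totals gave 76 rises and 36 falls, and to ribosomal protein genes 125 and 15. The median of all genes was then at 0.20 and 0.43, in place of 0.02.

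The libraries labelled Mettl3 cKO differed little from WT in the members: 2 rose and 3 fell, where 2.51% of all genes rose and 1.44% fell, and 31 members had an unadjusted p below 0.05. DESeq2 called 1 rise and 1 fall. Plk2, a kinase of centriole duplication and the p53 response, was at 51.9 and 56.9 CPM in WT and 76.4 and 71.5 in cKO (0.45 ± 0.09, adjusted p = 0.00255 by edgeR), and Nfkbia at 48.7 and 45.6 and 63 and 60.1 (0.38 ± 0.09). Zbtb10 was at 144 and 149 CPM in WT and 114 and 102 in cKO (-0.43 ± 0.07). Crybg3 (-0.35 ± 0.09) and Ephb3 (-0.30 ± 0.08) were the other falls. All 5 were called in the same direction in the libraries labelled Virma cKO. Over all genes, 75.2% of those rising with the Mettl3 label rose with the Virma label and 83.5% of those falling fell. PrE markers summed to 9327 to 9716 CPM in WT and 7189 to 7487 in cKO, and feeder markers to 2371 to 2488 and 3419 to 3582 CPM, and their part was not tested. Scaling to ribosomal protein genes left 0 rises and 2 falls, and Plk2, Nfkbia, Crybg3 and Ephb3 each lost the call under at least 1 alternative. Mettl3 itself was no lower in the libraries labelled cKO, and counts over the whole gene do not test a deletion of part of it. The directions given here thus rest on the label, which the counts did not check.

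In the libraries labelled siIgf2bp3, in which Igf2bp3 was not lower, 14 members rose and 9 fell, where 2.79% of all genes rose and 4.52% fell (7.32% called in either direction), and the median change was 0.09. These counts hung on single libraries. Without the first siIgf2bp3 library 0 rose and 4 fell, without the second 2 and 4, without the first siNC library 34 and 19, and without the second 73 and 37. Jmjd1c, a JmjC-domain chromatin protein, was at 214 and 249 CPM in siNC and 367 and 346 in siIgf2bp3 (0.62 ± 0.10, adjusted p = 0.00801 by edgeR). Fbxo5, the inhibitor of the anaphase-promoting complex, was at 49.4 and 55 CPM and 82.7 and 76.9 (0.61 ± 0.12). Kbtbd8, a cullin 3 adaptor of neural crest, was at 11.8 and 15.3 CPM and 24 and 21.3 (0.74 ± 0.18). Zbtb43 (0.54), Kat6b (0.52), Tasor, of the HUSH silencing complex (0.47), Dido1 (0.47) and Nup153 (0.43) rose too, with both libraries above both siNC libraries.

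Falls with this label were mostly signalling genes, with 6 of 34 falling and 0 rising. Ephb3 was at 268 and 198 CPM in siNC and 106 and 110 in siIgf2bp3 (-1.10 ± 0.14, adjusted p = 0.00147 by edgeR). Amotl2, a junction protein that restrains YAP, was at 441 and 358 CPM and 229 and 234 (-0.79 ± 0.11). Ccn1 was at 235 and 218 CPM and 135 and 133 (-0.76 ± 0.10). Socs3 (-0.70), Cited2 (-0.60), Spty2d1 (-0.50), Rassf8 (-0.49) and Plk2 (-0.48) were the other leading falls, with groups that did not overlap. Of the 14 members that rose, 13 (92.9%) fell in PrE-E against EPI-E, and of the 9 that fell, 7 (77.8%) rose there. Over all genes these shares were 74.5% and 81.9%. PrE markers summed to 13479 to 14462 CPM in siNC and 5203 to 5233 in siIgf2bp3, and their part was not tested. Change with this label also went with GC content, with Spearman's rho of -0.50 over 234 members and -0.51 over 8180 genes.

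Across the 5 comparisons between conditions, 1 member was called in all, 12 in 4, 44 in 3, 72 in 2, 71 in 1 and 35 in none. A like count over all genes was not made, so these numbers do not set the members apart. Of all genes tested, 57.7% were called in the sorted and 72.5% in the embryoid comparison, against 61.3% and 56.6% of members. With the Virma, Mettl3 and siIgf2bp3 labels the shares were 33.2%, 3.95% and 7.32% of all genes, and 42.1%, 2.13% and 9.79% of members. Ephb3 was the member called in all: lower with the Virma, Mettl3 and siIgf2bp3 labels, and higher in PrE-E and in embryoid VE, at 7.26 to 11 CPM (median 9.47) against 0.431 to 4.47 in EPI (median 2.45; 1.98 ± 0.41). Its Mettl3 call was lost with the replicate block (adjusted p = 0.0721 by edgeR), with DESeq2 (adjusted p = 0.149), without the first WT library (0.227) and without the second cKO library (0.202). Zbtb10, a zinc finger repressor, was higher in PrE-E, at 199 and 196 against 30.3 and 23.9 CPM, and in VE (4.06 ± 0.57), and was not called with the siIgf2bp3 label (-0.36, adjusted p = 0.0671 by edgeR). Cited2 and Rassf8 fell with the Virma and siIgf2bp3 labels and rose in PrE-E and VE, Rassf8 from 0 to 0.971 CPM in EPI to 14.9 to 17.4 in VE. With the Mettl3 label Cited2 was at 130 and 135 CPM in WT and 118 and 109 in cKO and was not called (adjusted p = 0.103 by edgeR). With ribosomal protein scaling the Virma change of Cited2 was -0.31 and no longer called (adjusted p = 0.0534 by edgeR). Amotl2 also fell with the Virma and siIgf2bp3 labels and rose in PrE-E (1.84 ± 0.10) and VE (0.70 ± 0.21), where the groups overlapped. With ribosomal protein scaling its Virma change was -0.10 and no longer called (adjusted p = 0.403 by edgeR).

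The chromatin genes among the most often called members went the other way between fractions. Tet2 was at 45.9 and 57.1 CPM in PrE-E and 200 and 198 in EPI-E (-1.95 ± 0.12), and fell in VE (-1.52 ± 0.34), where the groups overlapped. With the siIgf2bp3 label Tet2 rose (0.41 ± 0.10), and with the Virma label it fell, from 269 and 261 to 96.2 and 103 CPM. Jmjd1c was at 138 and 124 CPM in PrE-E and 633 and 628 in EPI-E (-2.27 ± 0.07), fell in VE (-1.33 ± 0.15) and rose with the Virma label (0.37 ± 0.07). Tasor fell in PrE-E (-1.05 ± 0.08), in VE with overlapping groups (-1.22 ± 0.25) and with the Virma label (-0.79 ± 0.09). Ticrr, a replication initiation factor, fell in PrE-E (-1.60 ± 0.12), in VE (-1.29 ± 0.25) and with the Virma label (-0.24 ± 0.09), and rose with the siIgf2bp3 label (0.39 ± 0.10). Its Virma call was lost with DESeq2 and library totals, and its value turned to 0.18 with ribosomal protein scaling. Plk2 rose with the Virma and Mettl3 labels and fell with the siIgf2bp3 label and in VE, at 37.9 to 51.3 CPM (median 43.4) against 91.1 to 120 in EPI (median 104).

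**Figure D5:**
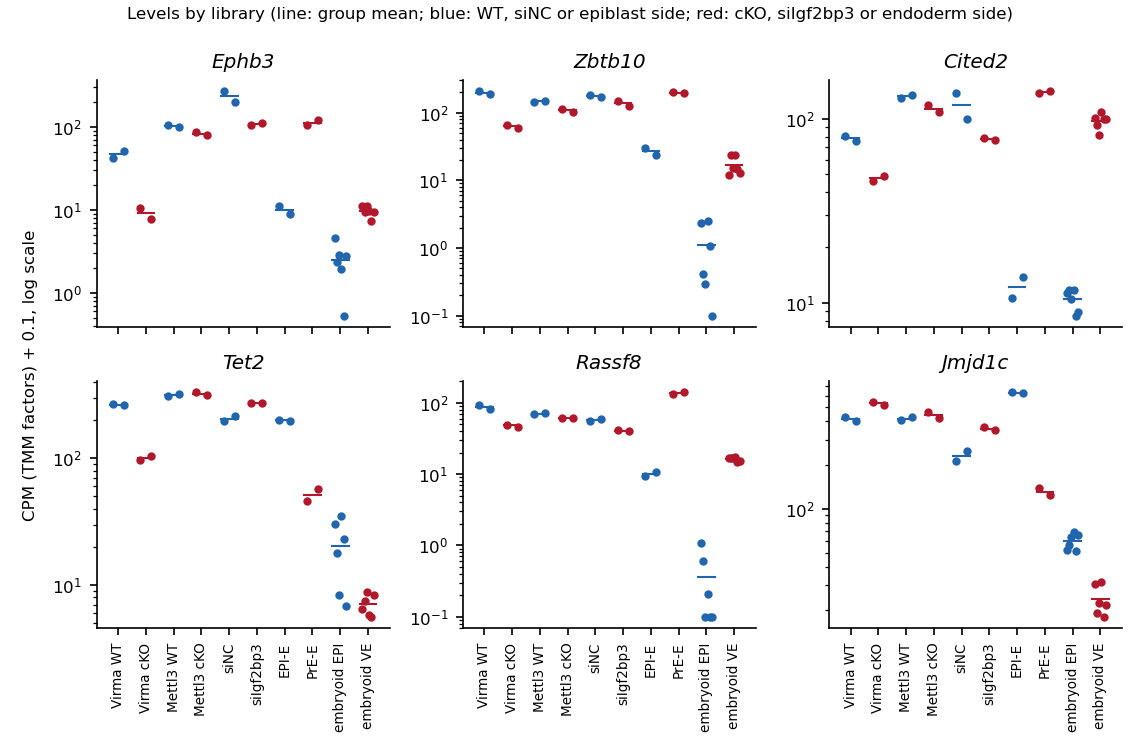
Levels in CPM with TMM factors, plus 0.1, on a log axis, of the 6 members called most often, by library in the 5 tables that compare conditions, with group means as lines; each table was scaled on its own, so levels compare within a table. Ephb3, Zbtb10, Cited2 and Rassf8 sit higher in PrE-E and embryoid VE than in EPI-E and embryoid EPI, and Tet2 and Jmjd1c lower.

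The untreated EPSC table held the members at a median of 58.2 CPM, from 5.85 to 718 CPM, with 227 of 235 at 10 CPM or more. Against EPS at 0 h of the drug, another library set of cells in the same named state, 176 members (74.9%) were higher, at a median ratio of 1.54, where 47.4% of the genes at 10 CPM or more were higher (median ratio 0.971). Zbed6 was at 300.3 and 325 CPM in EPSC and 24.1 and 23 in EPS at 0 h. Table and group coincide here, so this is a description with no test. The 2 sets also differed in markers: 12 feeder fibroblast markers summed to 1727 to 1729 CPM in EPSC and 251.6 to 252 CPM in EPS at 0 h. Sums of 10 PrE markers were 703 to 710 and 285 to 288 CPM. The part of these differences in the members' ratios was not tested. Summed over all members, the sorted fractions held 14167 and 14274 CPM in PrE-E and 16933 and 16810 in EPI-E, and the embryoid parts 5760 to 6267 CPM in VE and 7122 to 7918 in EPI. The sums were 18682 and 18360 CPM in Virma WT and 20636 and 20401 in cKO, 21120 and 21613 in Mettl3 WT and 21383 and 20820 in cKO, and 19762 and 20141 in siNC and 20778 and 20446 in siIgf2bp3. The sum was lower in PrE-E and VE than in the epiblast side of each table, with no overlap, and higher in Virma cKO and siIgf2bp3, while the Mettl3 groups overlapped. With TMM factors the ratio of the Virma sums, cKO over WT, went from 1.11 to 0.976.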

How the data were processed

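RNA of 46 libraries in 19 groups was read from 7 tables. The authors deposited raw read counts per gene symbol, with no normalization. Reads passed FastQC 0.12.1, Trim Galore, STAR 2.7.11b and Subread on mm39, per the submitters' processing notes; the annotation, the strand setting and which of 2 library kits made which library are not given in the sources used here. From the EPSC counts, 19 repeated symbols were left out. The members and lists were chosen with earlier results of these data known, and roles were assigned by name once the members were known.

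Tests were edgeR 4.0.16 quasi-likelihood fits with TMM factors, filterByExpr (minimum count 10, total 15) and robust dispersion, 1 fit a table, with Benjamini-Hochberg adjustment over all genes tested and a threshold of 0.05. The standard error is the log2 change over the root of F. The time course fit used the 8 libraries at 1 h and 3 h. On simulated counts with 200 of 13113 genes changed by 1 log2 unit, 73.5% were recovered in the Virma comparison.

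Named genes were drawn from a rule: for each comparison, the 8 largest rises and the 8 largest falls that passed the threshold, had a mean of 10 CPM and did not overlap, the 10 members called most often, the 12 lowest ratios, the 12 highest levels, genes beside the limit and the leading genes of each list; other genes were named after their values were seen. Results of a few genes that the rule names are not reported here. Alternatives were other scalings, DESeq2 1.42.0, other filters, a replicate block and, except in the embryoids, leaving out each library. Intervals and floors cover counting error only.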

Additional observations from a re-analysis of the deposited data

Results flagged for a closer look

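The change from 1 h to 3 h of actinomycin D differed between the states by the interaction test in edgeR. It was more positive in PrEdiff than in EPS for 43 members and more negative for 119, where 27.5% and 27.9% of all genes were so called, and 202 members were more negative with scaling to ribosomal protein genes. Large positive differences, PrEdiff minus EPS on the log2 scale, were those of Hyls1 (1.22), Gbx2 (1.04), Dyrk3 (1.00), Srfbp1 (0.97), Nsrp1 (0.94) and Amotl2 (0.93). With ribosomal protein scaling Gbx2 was at 0.25, Dyrk3 at 0.21, Srfbp1 at 0.18, Nsrp1 at 0.15 and Amotl2 at 0.14, and these 5 were no longer called (adjusted p from 0.15 to 0.41 by edgeR). Among members with a mean of at least 10 CPM, large negative differences were those of Pdpr (-3.55), Kmt2c (-2.74), Ankhd1 (-2.31), Ankrd52 (-2.21), Dennd4c (-1.93), Ash1l (-1.93), Ankrd31 (-1.93) and Setd1b, a histone methyltransferase (-1.92). Below that mean, Zbed6 had -4.61.

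In 3 of 52 groups of 6 embryoid libraries, the highest library lay far from the others by Dixon's criterion, which chance meets in about 1 in 20 groups. These were Arid5b in VE, with a highest library at 131 CPM, Ticrr in VE, with one at 16.6 CPM, and Tut1 in EPI, with one at 79.9 CPM.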

How the results depend on the processing

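Of the values for single genes under the alternatives, 2073 kept their direction and side of the threshold, 82 no longer passed it, 10 newly passed it and 24 changed sign. The cause of the changes below was not tested.

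With library totals, 76 members rose with the Virma label, and 1 rose from 1 h to 3 h in PrEdiff. Ribosomal protein scaling gave 125 rises and 15 falls with the Virma label, 0 rises with the Mettl3 label, 87 rises in embryoid VE, 0 rises from 1 h to 3 h in PrEdiff, 159 higher and 40 lower in PrEdiff at 1 h, and 6 and 202 for the difference between states. DESeq2 gave 1 rise and 1 fall with the Mettl3 label and 2 rises from 1 h to 3 h in PrEdiff. Falls with the Mettl3 label numbered 5 with RLE factors, with a filter of 1 CPM and with no filter, and with no filter 26 rose and 17 fell with the siIgf2bp3 label. Leaving out 1 library gave 30 to 43 rises with the Virma label, 1 to 3 rises and 1 to 3 falls with the Mettl3 label, and 0 to 73 rises and 4 to 37 falls with the siIgf2bp3 label. The members numbered 79 with TMM factors, 124 at a limit of 0.30 and 406 at 0.40. TMM factors gave summed ratios of 0.252 in EPS and 0.3495 in PrEdiff at 2 h over 0 h, 0.976 for Virma cKO over WT, 0.885 for PrE-E over EPI-E and 0.846 for embryoid VE over EPI. The background share with 3 exons or fewer was 9.81% at 5 CPM.

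The log2 values below changed sign, and some of them were called in the new direction. With ribosomal protein scaling these were Ticrr at 0.18 with the Virma label, Tet2 at -0.019 and Ticrr at -0.024 with the Mettl3 label, Plk2 at 0.23 in PrE-E, Rassf8 at 0.099 from 1 h to 3 h in EPS, and Plk2 at -0.22 for the difference between states. From 1 h to 3 h in PrEdiff, library totals and ribosomal protein scaling gave Kmt2e -0.034 and -0.30, Pank3 -0.098 and -0.36, Ppp1r12a -0.054 and -0.32, and Tet2 -0.0094 and -0.27, and at 1 h Ticrr 0.14 and 0.37. Kmt2e, Pank3, Ppp1r12a and Tet2 were called as falls with ribosomal protein scaling. Ticrr was called higher in PrEdiff at 1 h with both scalings. Leaving out 1 library in turn gave -0.0037 to 0.053 for Ticrr and -0.26 to 0.043 for Tasor with the Mettl3 label, -0.42 to 0.26 for Plk2 in PrE-E, -0.47 to 0.049 for Rassf8 from 1 h to 3 h in EPS, and -0.16 to 0.077 for Zbtb10 for the difference between states.

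Deviations of same-numbered libraries correlated by -0.093 to 0.028, so no pairing by replicate number was seen. Such values cannot exclude a shared source, above all where replicates differ by little more than counting error. With the replicate block, rises and falls were 48 and 51 with the Virma label, 2 and 2 with the Mettl3 label, 20 and 11 with the siIgf2bp3 label, 60 and 83 in PrE-E, 61 and 70 in VE, 77 and 139 in EPS and 5 and 200 in PrEdiff from 1 h to 3 h, 97 and 86 at 1 h, and 42 and 118 for the difference between states. Fits without the EPS 3 h libraries were chosen after seeing the data.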
